A study of Danio rerio with 3 samples.

Results

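AP-1 is a transcription factor made of a Fos and a Jun protein, and the genes described here are the zebrafish genes fosab, fosb, fosl1a and fosl2 of the Fos family and jun, junba, junbb and jund of the Jun family. The 8 genes were taken by their symbols from a gene table of 32057 features, and each symbol stood for 1 identifier. No cutoff on a measured value was used, but the choice was made with earlier results of these data known. They were measured in brain tissue of zebrafish (Danio rerio) by 10x Genomics single-cell sequencing, where each droplet adds a barcode and every captured transcript a unique molecular identifier (UMI). The study asked how zinc acts on the brain and deposited 3 libraries, 1 per treatment: Zn10 and Zn15, both from zinc treatments, and the control Ctrl. Not given in the sources used here were what 10 and 15 measure, how and for how long zinc was given, which strain and age were used and how many animals each library pooled. Zn10 and Zn15 are therefore not treated as an ordered dose series.

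Fos and Jun proteins pair through a leucine zipper and bind DNA through the basic region beside it. Jun proteins can also pair with each other, whereas Fos proteins need a partner. In mammals, Fos, Fosb, Jun and Junb are immediate early genes, transcribed within minutes of a stimulus from proteins already in the cell. Neuronal activity, growth factors, wounding and inflammatory signals all raise them in the brain, and so does the dissociation of tissue into single cells. Jund is known for steadier levels, and Fosl1 and Fosl2 for later or longer responses.

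Each treatment had a single library, so nothing could be tested across samples and no p-value is given. Levels are counts per 1000000 UMIs of the library or cluster (CPM), and all intervals are exact 95% intervals for counting error only. UMIs of a gene that sit together in few barcodes make these intervals too narrow, and differences between fish or preparations are not in them. Zn10 held 974866 UMIs in 2850 barcodes, Zn15 1634806 in 5154 and Ctrl 1698707 in 5679, with medians of 271, 255 and 240 UMIs per barcode in that order. Pairs of libraries had 4 to 8 barcode sequences in common. Scaling to all UMIs left the middle gene off 0: over 4824 genes the median-of-ratios shift was 0.12 for Zn10 over Ctrl, −0.06 for Zn15 over Ctrl and −0.18 for Zn15 over Zn10 on the log2 scale. Member ratios are read against these shifts. How well the transcripts of each gene were captured was not measured, so levels are compared between libraries or clusters for 1 gene, not between genes. Sums and shares over the 8 genes are of UMIs and depend on that capture. They too are read between libraries or clusters.

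Of the Fos genes, fosab gave the most UMIs. fosab (ENSDARG00000031683), the zebrafish counterpart of c-Fos, stood at 1030 CPM in Zn10 (1004 UMIs), 743 CPM in Zn15 (1214 UMIs) and 833 CPM in Ctrl (1415 UMIs). It was thus high in Zn10 and low in Zn15, with ratios to Ctrl of 1.24 (1.14 to 1.34) and 0.892 (0.825 to 0.963). Less the shift of the middle gene these were 0.19 and −0.10 in log2. fosb (ENSDARG00000055751), also an activity-regulated gene, was at 198 CPM in Zn10, 173 CPM in Zn15 and 208 CPM in Ctrl. Its ratio to Ctrl was 0.95 (0.793 to 1.14) in Zn10, where no difference was detectable at this depth, and 0.831 (0.708 to 0.974) in Zn15. Less the shift the log2 ratios of fosb were −0.19 and −0.20.

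fosl1a (ENSDARG00000015355), which encodes the Fos-related antigen Fra-1, was lowest in Zn10. It gave 411 CPM in Zn10 (401 UMIs), 461 CPM in Zn15 (754 UMIs) and 531 CPM in Ctrl (902 UMIs). The ratio of Zn10 to Ctrl was 0.775 (0.687 to 0.872), −0.49 in log2 less the shift, and that of Zn15 to Ctrl 0.869 (0.788 to 0.958), −0.14 less the shift. This gene sat mainly in microglia or macrophage-like clusters, described below, and those clusters were a smaller part of Zn10. fosl2 (ENSDARG00000040623), which encodes Fra-2, was at 195 CPM in Zn10, 195 CPM in Zn15 and 184 CPM in Ctrl. Its ratios to Ctrl of 1.06 (0.879 to 1.27) and 1.06 (0.903 to 1.24) held no difference detectable at this depth, and in Zn10 the log2 ratio of 0.08 turned to −0.04 less the shift, while in Zn15 it was 0.15 less the shift.

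Among the Jun genes, jun (ENSDARG00000043531) gave the most UMIs of all 8 members. It stood at 1140 CPM in Zn10 (1111 UMIs), 1018 CPM in Zn15 (1664 UMIs) and 1153 CPM in Ctrl (1959 UMIs). The ratio to Ctrl was 0.988 (0.917 to 1.06) in Zn10 and 0.883 (0.826 to 0.943) in Zn15. Less the shift both were lower than Ctrl, at −0.14 and −0.12 in log2, so whether jun in Zn10 lay with Ctrl depends on the scaling. jund (ENSDARG00000067850), the steadier family member, was at 524 CPM in Zn10, 397 CPM in Zn15 and 440 CPM in Ctrl. It followed the order of fosab, with ratios to Ctrl of 1.19 (1.06 to 1.33) and 0.902 (0.810 to 1.003). Less the shift these were 0.13 and −0.09 in log2.

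The junb genes were lower in UMIs. junba (ENSDARG00000074378) gave 222 CPM in Zn10, 242 CPM in Zn15 and 253 CPM in Ctrl, with ratios to Ctrl of 0.877 (0.741 to 1.04) and 0.957 (0.832 to 1.099). In Zn10 the log2 ratio was −0.19, and −0.31 less the shift. junbb (ENSDARG00000104773), its duplicate, gave 21 UMIs in Zn10, 30 in Zn15 and 13 in Ctrl, which is 21.5, 18.4 and 7.65 CPM in that order. It was higher in both zinc libraries. The ratio to Ctrl was 2.82 for Zn10, with an interval from 1.35 to 6.12, and 2.40 for Zn15, with an interval from 1.21 to 5.01. At so few UMIs the size of these ratios is poorly fixed.

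**Figure D1:**
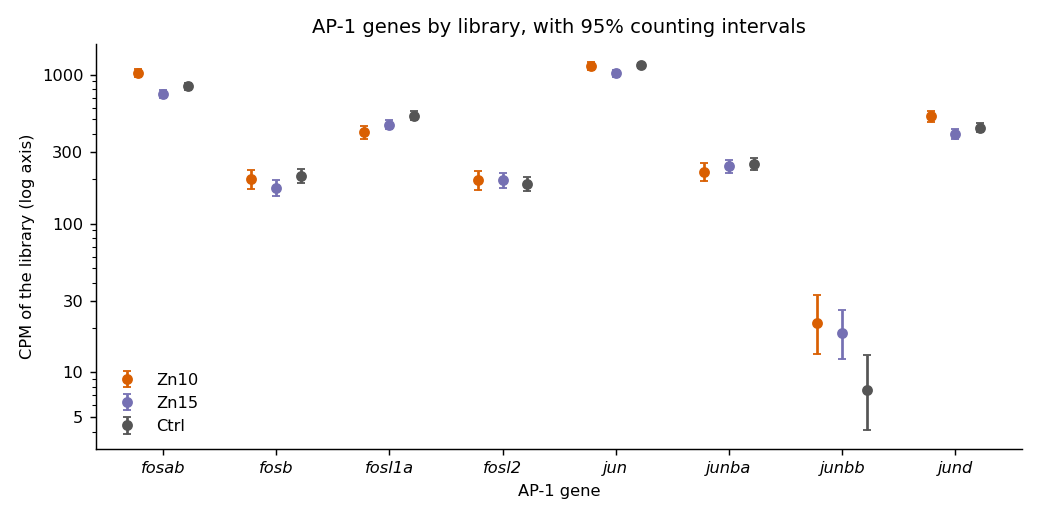
CPM of the 8 AP-1 genes (log axis) in the Zn10, Zn15 and Ctrl libraries, 1 library each, with exact Poisson 95% intervals for counting error. fosab and jund were highest in Zn10, fosl1a was highest in Ctrl, and the gap of junbb between the zinc libraries and Ctrl rests on 21, 30 and 13 UMIs.

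Past a fold of 1.5 in either direction stood 1 of 8 members in Zn10 over Ctrl, where 23.5% of all 6548 genes with at least 20 UMIs in 1 of the 2 libraries did. The same count was 1 of 8 in Zn15 over Ctrl, beside 23.5% of 6940 genes, and in both comparisons that member was junbb. With 13 UMIs in Ctrl, junbb met the minimum of 20 UMIs only through the zinc library, where it was higher. That filter favours a higher value in zinc for such a gene, so this count is no support for a difference. In Zn15 over Zn10 it was 0 of 8, beside 24.2% of 6423 genes. With 8 members these counts are small beside the background, and the background holds many genes of few UMIs. The 8 members together gave 3741 CPM in Zn10 (3621 to 3864), 3247 CPM in Zn15 (3160 to 3335) and 3610 CPM in Ctrl (3521 to 3702). In log2 that was 0.05 for Zn10 over Ctrl, which turned to −0.07 with median-of-ratios size factors, and −0.15 for Zn15 over Ctrl, which stayed lower at −0.09. For Zn15 over Zn10 it was −0.20, and −0.02 with those size factors. Fos genes made up 49.0% of the AP-1 UMIs in Zn10, 48.4% in Zn15 and 48.7% in Ctrl.

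The libraries also differed in the cells they held, as found by the clustering described next. Clusters 7 and 11, both microglia or macrophage-like, were 2.85% and 1.87% of the kept barcodes of Zn10, 5.41% and 2.48% of those of Zn15 and 5.75% and 3.41% of those of Ctrl. Without them the log2 ratio of fosl1a in Zn10 over Ctrl was 0.37 instead of −0.37, and in Zn15 over Ctrl 0.11 instead of −0.20. With the clusters of each library weighted to the mix of Ctrl, fosl1a stood at 0.00 in Zn10 over Ctrl. Under that weighting the log2 ratio of fosab in Zn10 over Ctrl was 0.02 instead of 0.31. Clusters other than 7 and 11 differed in share as well. Of those highest in fosab, cluster 14 was 2.68%, 1.24% and 1.34% of the kept barcodes of Zn10, Zn15 and Ctrl. Cluster 15 was 1.99%, 2.02% and 0.929% in the same order, and cluster 9 was 3.33%, 4.3% and 3.78%. The neuron-like cluster 1 was 19.8%, 10.6% and 19.8%. jund kept its value, with 0.31 under the weighting and 0.25 without it. In summed libraries, fewer cells of a type and less RNA per cell cannot be told apart.

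Barcodes with no fewer than 100 detected genes and no more than 30% of UMIs from mitochondrial genes were grouped by their expression without the AP-1 genes, the other immediate early genes and the stress genes. That kept 2459 barcodes of Zn10, 4119 of Zn15 and 4629 of Ctrl, and gave 18 clusters. Of these 14 were named from marker lists, and 4 stayed unnamed (clusters 2, 10, 15 and 18). Clusters are compared by number, since clusters of 1 name differed in their AP-1 levels. The deposit gives no cell type names for comparison in the files used here, and doublets were neither called nor removed.

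The AP-1 genes were far from even over the clusters. Summed over the 3 libraries, the 8 members gave 12370 CPM in cluster 15 (11520 to 13270), which is unnamed and led by cxcl12b, ackr3a and flt1, and 8207 CPM in cluster 14 (7480 to 8986), habenula neuron-like with kiss1 and gpr139. Then came the radial glia-like cluster 9 with 6568 CPM and both microglia or macrophage-like clusters with 6183 CPM (cluster 11) and 5445 CPM (cluster 7). The lowest level was 1321 CPM (1005 to 1704) in cluster 17, the other habenula neuron-like cluster, led by gng8. The median over clusters was 3211 CPM. Cluster 15 was above cluster 14, and cluster 14 above cluster 9, in the sense that the lowest library of the one exceeded the highest of the next, and at the low end cluster 2 stood above cluster 17 in the same way. Most neighbours in between overlapped across libraries. The nuclear RNA malat1 made up 16.6% of the UMIs in cluster 6 and 45.6% in cluster 16, the extremes, and cluster CPM depends on this. With malat1 left out of the totals, cluster 15 stayed highest for fosab, fosb, fosl2, jun, junba and jund, and cluster 11 for fosl1a. Lower ranks are not given without malat1 and may differ.

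**Figure D2:**
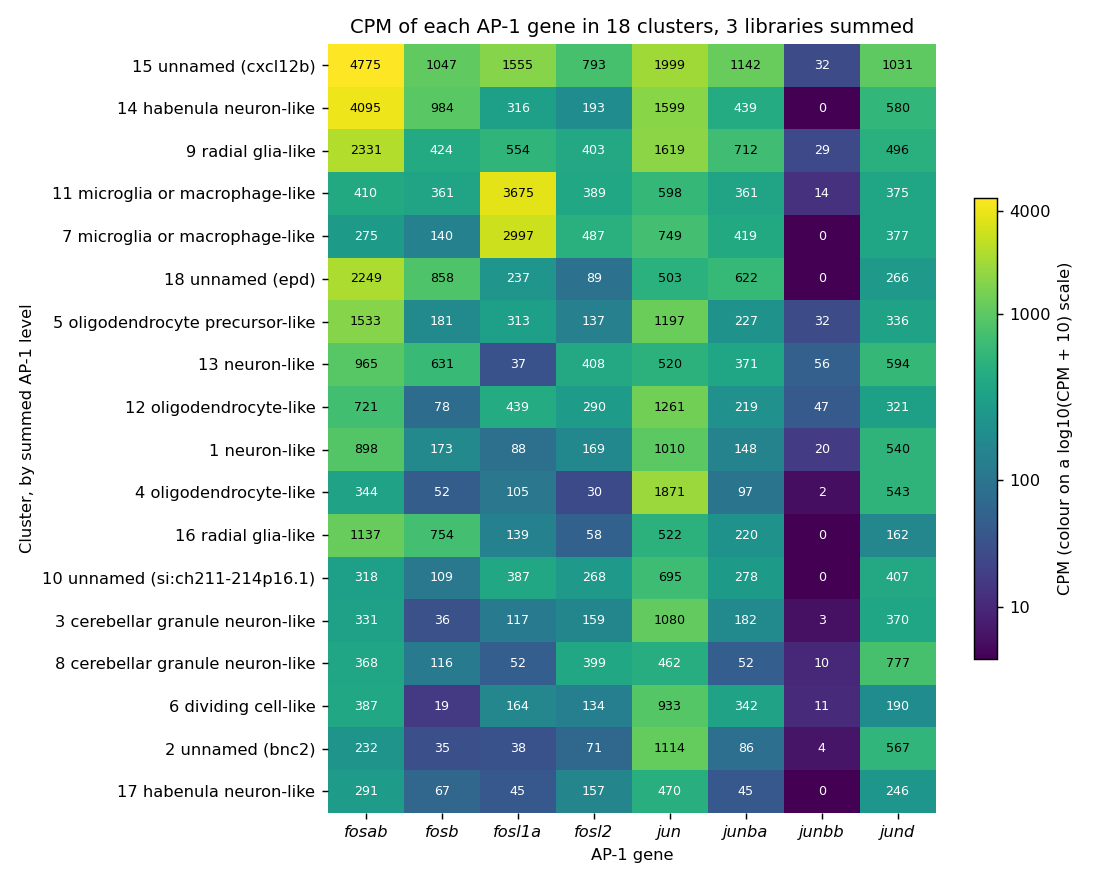
CPM of each AP-1 gene (columns) in the 18 clusters (rows, ordered by the summed level), with the UMIs of the 3 libraries added up. Unnamed clusters carry their leading gene. fosl1a is highest in clusters 11 and 7, fosab in clusters 15 and 14, and jun varies least.

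fosab spanned 4775 CPM in cluster 15 to 232 CPM in cluster 2. By library, cluster 15 gave 5481 CPM in Zn10, 3775 CPM in Zn15 and 6181 CPM in Ctrl. Cluster 14 gave 4265 CPM in Zn10, 4219 CPM in Zn15 and 3776 CPM in Ctrl, all above the radial glia-like cluster 9 with 2574, 1712 and 2901 CPM in the same order of libraries. Clusters 15 and 14 overlapped and cannot be ranked. Next came the unnamed cluster 18, led by epd and cp, with 2249 CPM, and then the oligodendrocyte precursor-like cluster 5 with 1533 CPM. Their libraries barely separated, with 1675 CPM as the lowest of cluster 18 (Ctrl, 22 UMIs) and 1674 CPM as the highest of cluster 5 (Zn10). Cluster 5, with 1101 barcodes, nevertheless held the largest part of the fosab UMIs in kept barcodes, 24.2%, ahead of cluster 1, neuron-like, with 20.6%. Its name does not hold for each of its barcodes. By the marker grouping described below, only 115 kept barcodes in all were oligodendrocyte precursor barcodes. Those held 96 fosab UMIs, and the radial glia barcodes of that grouping held 1127. The gng8-led habenula neuron-like cluster 17 had only 291 CPM, in contrast to cluster 14.

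fosb was high in the same places, with 1047 CPM in cluster 15, 984 CPM in cluster 14, 858 CPM in cluster 18 and 754 CPM in the second radial glia-like cluster, 16, which is led by glial genes such as cx43. No neighbours in its order were separated across libraries. It was lowest in the dividing cell-like cluster 6, at 18.6 CPM. Over the 18 clusters the levels of fosab and fosb went together with a Pearson r of 0.82 on a log2(CPM + 10) scale, the closest of the 28 pairs of members. This is a description over clusters that share libraries, depth and free RNA.

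fosl1a was highest in other clusters than fosab and fosb. Over the clusters its levels were closest to those of junba (r = 0.67) and fosl2 (0.52), and less close to those of fosab (0.24). fosl1a stood at 3675 CPM (3369 to 4002) in cluster 11, which carries apoc1, lgals9l1 and ccl34b.1, and at 2997 CPM (2781 to 3227) in cluster 7, which is led by inflammatory genes such as il1b. Cluster 11 gave 3708 CPM in Zn10, 3754 CPM in Zn15 and 3606 CPM in Ctrl, so that its libraries lay together. Cluster 7 gave 2952 CPM in Zn10, 2432 CPM in Zn15 and 3609 CPM in Ctrl. Its ratio to Ctrl was 0.674 (0.572 to 0.793) in Zn15, while in Zn10, at 0.818 (0.643 to 1.03), no difference was detectable at this depth. The 2 clusters held 27.5% and 36.8% of the fosl1a UMIs in kept barcodes. Below them, and separated across libraries at each step, came cluster 15 with 1555 CPM and cluster 9 with 554 CPM, while the neuron-like clusters 1 and 13 had 88.0 and 37.1 CPM. The highest cluster was 18.4-fold above the median cluster, against 8.45-fold for fosab and 2.06-fold for jun.

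Microglial markers were found outside these clusters too, and the UMIs of fosl1a are given beside them. Per 100 UMIs of the microglia or macrophage marker list, fosl1a gave 115 UMIs (103 to 129) in cluster 7 and 30.5 (27.7 to 33.7) in cluster 11, so these clusters themselves differed. The value was 607 (403 to 950) in cluster 5, 428 (254 to 760) in cluster 9, 372 (219 to 666) in cluster 1, 338 (221 to 531) in cluster 15 and 293 (160 to 567) in cluster 6. It was 71.2 (46.8 to 107) in the oligodendrocyte-like cluster 4, 25.8 (17.7 to 36.9) in the unnamed cluster 10 and 5 (2.12 to 10.1) in cluster 18. il1b, at 728 UMIs in cluster 7, had 0 UMIs in clusters 9 and 15, which allows up to 21.6 and 47.6 CPM there at 3 counts. Free RNA was not measured, and its part in fosl1a outside clusters 7 and 11 was not tested.

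fosl2 was highest in cluster 15, at 793 CPM, and next in cluster 7, at 487 CPM, and these 2 were separated across libraries. Cluster 7 was not set apart as second, since single libraries of clusters 9 and 11 reached 582 CPM (Zn15) and 560 CPM (Ctrl). The libraries of cluster 7 lay together, with 481 CPM in Zn10, 484 CPM in Zn15 and 491 CPM in Ctrl. The oligodendrocyte-like cluster 4 was lowest at 29.9 CPM. The granule neuron-like cluster 8, led by fat2, had 399 CPM, so fosl2 made up 17.8% of the AP-1 UMIs there, its highest share in any cluster.

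jun was the most even member. It ranged over 1999 CPM in cluster 15, 1871 CPM in the oligodendrocyte-like cluster 4, 1619 CPM in cluster 9 and 1599 CPM in cluster 14, down to 462 CPM in cluster 8. Cluster 4 had 2105 CPM in Zn10, 1871 CPM in Zn15 and 1792 CPM in Ctrl. None of the 9 highest clusters was separated from the next across libraries. jund was likewise even, with 1031 CPM in cluster 15, 777 CPM in cluster 8 and 162 CPM in cluster 16. In cluster 16 malat1 was 45.6% of the UMIs, which lowers the CPM of every other gene there. In cluster 8 jund was highest in Zn10, with 1313 CPM in Zn10 (31 UMIs), 592 CPM in Zn15 (23 UMIs) and 610 CPM in Ctrl (20 UMIs).

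junba was at 1142 CPM in cluster 15, above 712 CPM in cluster 9 across libraries, and at 44.8 CPM in cluster 17. The dividing cell-like cluster 6 had 342 CPM, and there junba was 15.7% of the AP-1 UMIs, its highest share. junbb had UMIs in 12 of 18 clusters. Cluster 5 gave 17 of the 57 junbb UMIs in kept barcodes, and cluster 1 gave 15. Cluster 5 held 7 UMIs in Zn10, 8 in Zn15 and 2 in Ctrl, too few for a ratio. In clusters 7, 10, 14, 16, 17 and 18 it had 0 UMIs, which in cluster 7 allows up to 12.7 CPM at 3 counts.

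Cluster 15 ranked first for 6 of the 7 members with more than 100 UMIs, but its 175 barcodes were not of 1 kind. With 1000 instead of 2000 variable genes, 53 of them formed a cluster of their own and 122 joined barcodes of which most were from the radial glia-like cluster 9. The genes flt1 and cxcl12b, of blood vessel and chemokine signalling, gave 39 and 63 UMIs in the 53 barcodes and 0 in the 122. The summed AP-1 level was 20730 CPM (18510 to 23150) in the 53 barcodes and 9697 CPM (8834 to 10620) in the 122. Both values were above the 8207 CPM of cluster 14, but the interval of the 122 barcodes overlapped that of cluster 14 (7480 to 8986). The 122 are only the part of a cluster of 613 barcodes that lay in cluster 15, so their rank is no separate support. fosab was at 7587 CPM and 3875 CPM, and fosl1a at 2943 CPM and 1110 CPM, in the 53 and the 122 barcodes.

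The make-up of AP-1 also differed between clusters. In clusters 11 and 7, 59.4% and 55.0% of the AP-1 UMIs were fosl1a, and Fos genes made up 78.2% and 71.6%. In the oligodendrocyte-like cluster 4, 61.5% were jun (58.7 to 64.2) and Fos genes made up 17.4%. Cluster 2, unnamed and carrying tfap2a and barhl2, was similar with 51.9% jun and 17.5% Fos genes. fosab was 49.9% of AP-1 in cluster 14 and 46.6% in cluster 18. jund reached 34.7% in cluster 8 and fosb 25.2% in cluster 16. Clusters of 1 name could differ here too: the oligodendrocyte-like cluster 12, led by c7b and opn1lw1, had 37.4% jun and 45.2% Fos genes.

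**Figure D3:**
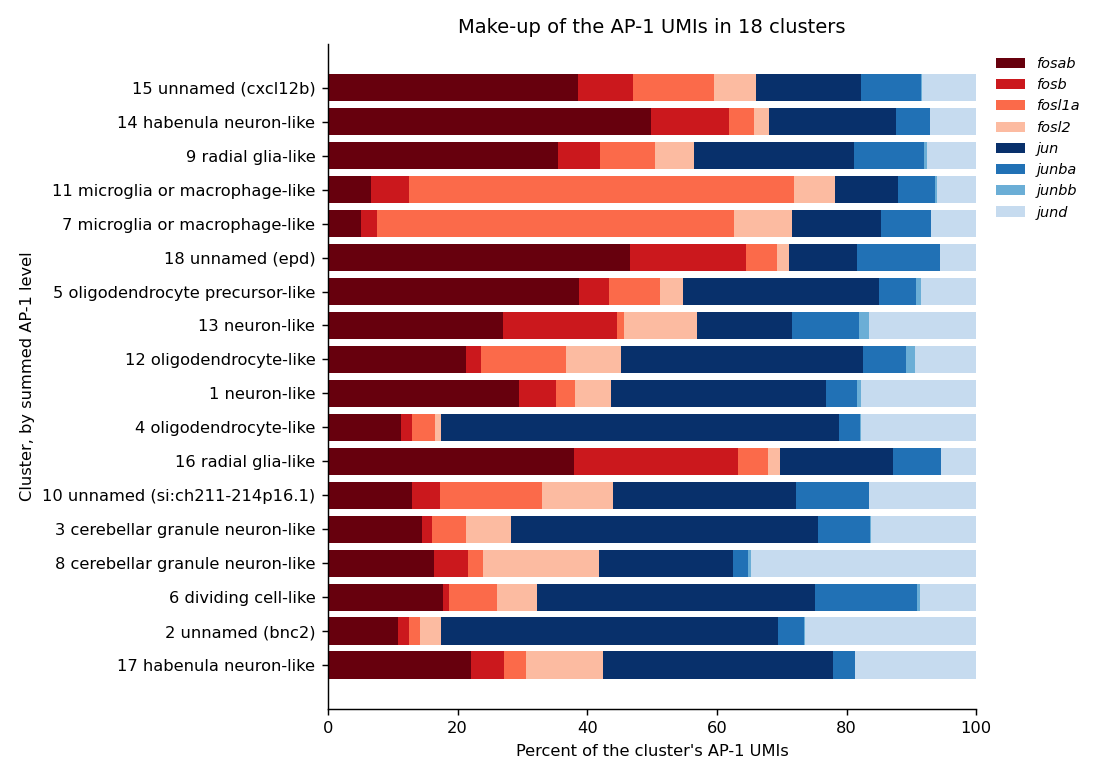
Percent of each cluster's AP-1 UMIs that came from each of the 8 genes (Fos genes in reds, Jun genes in blues), with the 3 libraries added up and clusters ordered by summed level. fosl1a fills over 50% of the bars of clusters 11 and 7, and jun those of clusters 4 and 2.

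Grouping single barcodes by markers, with at least 2 UMIs of a list and more than of any other list, again put fosl1a first in microglia, while fosab was highest in habenula neurons. No class stood for cluster 15, and 4271 kept barcodes fell in no class. Those held 618 fosl1a UMIs (498 CPM), beside 624 in the microglia or macrophage barcodes. Microglia or macrophage barcodes (426, of which 103 had just 2 marker UMIs) had 3017 CPM of fosl1a (2785 to 3264), next to 551 CPM in radial glia barcodes and 63.7 CPM in glutamatergic neuron barcodes. Habenula neuron barcodes (140, 36 at 2 UMIs) had 2441 CPM of fosab (2030 to 2910), oligodendrocyte precursor barcodes (115, 47 at 2 UMIs) 1690 CPM and radial glia barcodes (1560, 420 at 2 UMIs) 1579 CPM. GABAergic and glutamatergic neuron barcodes (450 and 306, with 134 and 132 at 2 UMIs) lay close, with 1019 CPM (887 to 1165) and 924 CPM (763 to 1108) of fosab. For jun, oligodendrocyte barcodes (1333, 45 at 2 UMIs) led with 1753 CPM (1638 to 1874), and the remaining classes lay between 488 and 1210 CPM. The classes had a median of 3 to 18 UMIs of their own markers per barcode and of 1 to 3 UMIs of the next highest list.

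Within clusters, the zinc libraries were next compared with Ctrl 1 cluster at a time, for a member with at least 20 UMIs there in 1 of the 2 libraries. Of the pairs of 8 members and 18 clusters, 64 reached this for Zn10 and 76 for Zn15, and the rest were not compared. In Zn10 over Ctrl 20 of 64 pairs of member and cluster lay past 1.5-fold, 9 higher and 11 lower, which is 31.25% beside 30.6% of all pairs of gene and cluster. In Zn15 over Ctrl it was 23 of 76, 7 higher and 16 lower, which is 30.3% beside 29.0%. Past this fold the members were thus near the background in both comparisons. In Zn15, 51 of the 76 pairs (67.1%) were lower than in Ctrl by any amount, beside 54.9% of all pairs of gene and cluster, and in Zn10 31 of 64 (48.4%) were, beside 49.8%. The summed AP-1 level was lower than in Ctrl in 14 of 18 clusters in Zn15 and in 9 of 18 in Zn10. Less the shift of the middle gene it was 11 in Zn15 and 11 in Zn10, and with malat1, a nuclear RNA of 27.0% to 32.3% of each library, left out of the totals it was 11 in Zn15 and 9 in Zn10.

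**Figure D4:**
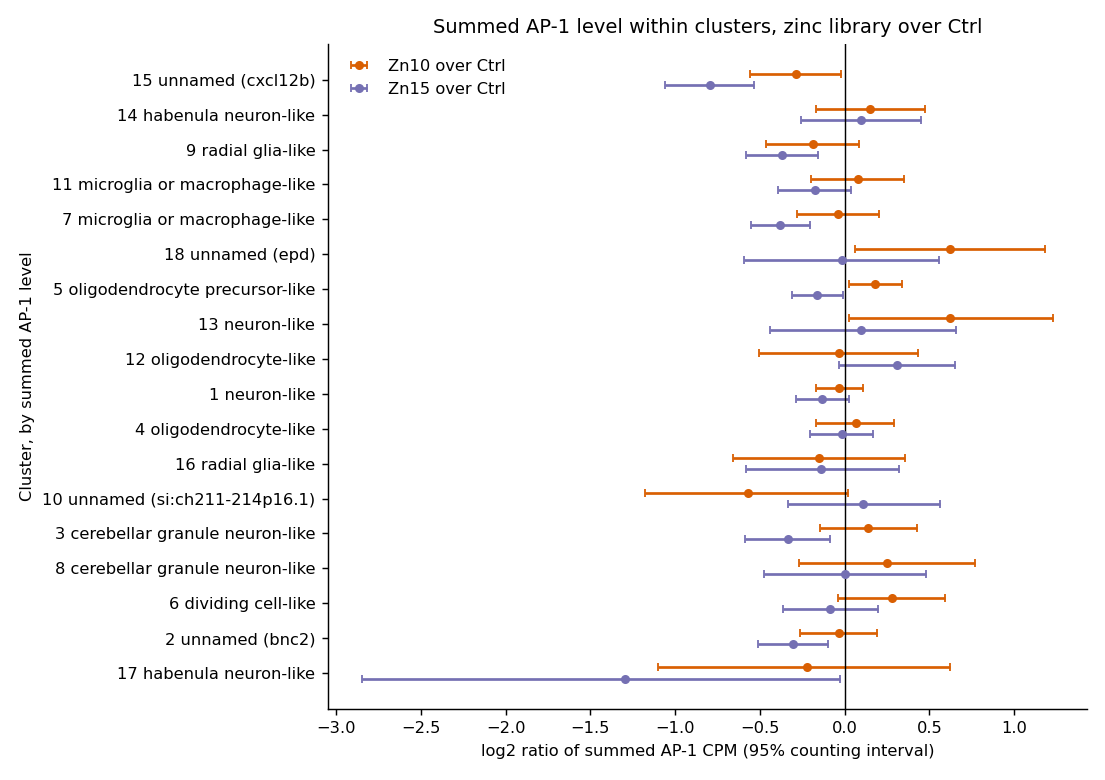
log2 ratio of the summed AP-1 CPM within each cluster, for Zn10 over Ctrl and Zn15 over Ctrl, with exact 95% intervals for counting error and clusters ordered by summed level. Points left of 0 are lower in the zinc library. Zn15 lies left of 0 in 14 of 18 clusters, with a ratio of 0.576 in cluster 15.

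The cluster with most AP-1 was among those where Zn15 and Ctrl differed. Cluster 15 had a summed level of 13800 CPM in Zn10 (277 UMIs), 9712 CPM in Zn15 (301 UMIs) and 16870 CPM in Ctrl (202 UMIs), and the ratio of Zn15 to Ctrl was 0.576 (0.480 to 0.692). The 7 members measured there were all lower in Zn15 than in Ctrl, with fosab at 3775 and 6181 CPM, fosb at 678 and 1837 CPM, jun at 1742 and 3174 CPM, junba at 968 and 1921 CPM and jund at 742 and 1587 CPM in Zn15 and Ctrl. The gaps of fosl1a (1162 and 1336 CPM) and fosl2 (645 and 835 CPM) were smaller. Zn15 was also below Ctrl in both groups of barcodes into which cluster 15 split, with 14640 and 20970 CPM in the 53 barcodes and 8642 and 14620 CPM in the 122. Zn10, with 26670 CPM in the 53 barcodes and 8929 CPM in the 122, was above Ctrl in the first and below it in the second. Single members also went the other way: in the 53 barcodes jund was at 1446 CPM in Zn15 and 1178 CPM in Ctrl and fosl1a at 1626 and 1413 CPM, and in the 122 fosl2 was at 668 and 388 CPM. The genes that set the 53 barcodes apart differed between the libraries as well, with 15 UMIs of flt1 in Zn15 and 4 in Ctrl, and 29 and 3 UMIs of cxcl12b. The part of cell make-up in these differences was not tested. Cluster 15 held 49 barcodes of Zn10, 83 of Zn15 and 43 of Ctrl, so few barcodes carry these values.

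In the radial glia-like cluster 9, fosab was at 2574 CPM in Zn10, 1712 CPM in Zn15 and 2901 CPM in Ctrl. The ratio of Zn15 to Ctrl was 0.590 (0.456 to 0.761). The microglia or macrophage-like cluster 7 had a summed level of 5936 CPM in Zn10, 4683 CPM in Zn15 and 6095 CPM in Ctrl, a ratio of Zn15 to Ctrl of 0.768 (0.681 to 0.867). Cluster 14 went the other way for jun, with 1688 CPM in Zn10 (38 UMIs), 2109 CPM in Zn15 (34 UMIs) and 1040 CPM in Ctrl (19 UMIs). The jun ratios to Ctrl were 1.62 (0.913 to 2.98) and 2.03 (1.12 to 3.76). There jun met the minimum of 20 UMIs only through the zinc libraries, where it was higher, so these ratios are no support for a difference. fosb in that cluster was at 889 CPM in Zn10 (20 UMIs), 620 CPM in Zn15 (10 UMIs) and 1423 CPM in Ctrl (26 UMIs). Its comparison of Zn15 with Ctrl met the minimum only through Ctrl, where it was higher. In the oligodendrocyte precursor-like cluster 5 the summed level was 4520 CPM in Zn10, 3563 CPM in Zn15 and 3986 CPM in Ctrl, so that Zn10 and Zn15 lay on opposite sides of Ctrl.

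**Figure D5:**
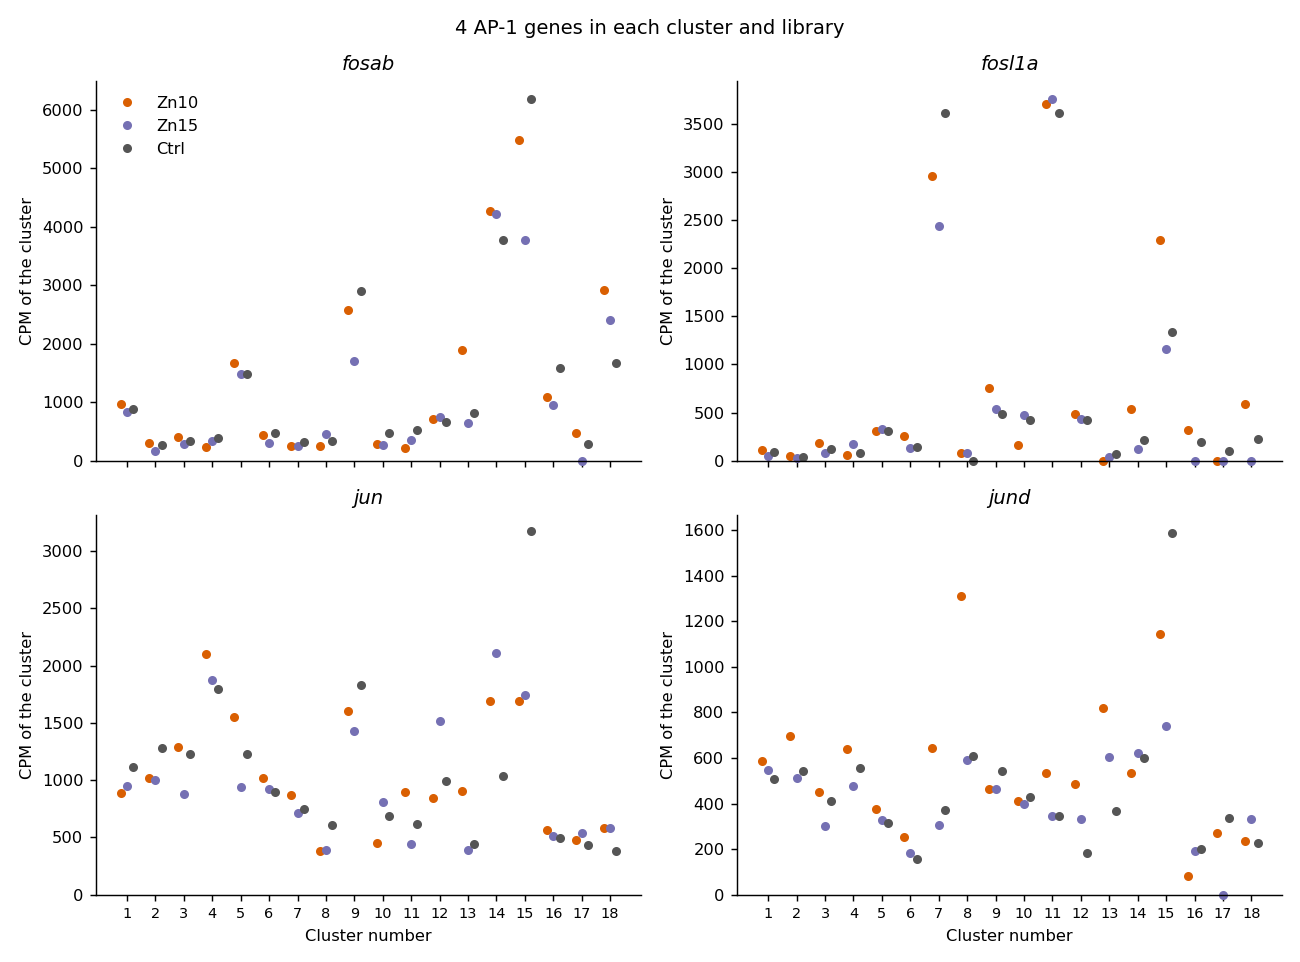
CPM of fosab, fosl1a, jun and jund in each of the 18 clusters, with 1 point each for Zn10, Zn15 and Ctrl. The differences between clusters are larger than those between libraries for fosab and fosl1a. In cluster 15 Ctrl is highest for fosab (6181 CPM), jun (3174 CPM) and jund (1587 CPM).

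The chaperone gene hsp70l, which heat and handling induce, moved with some of these values. It was at 4307 CPM in Zn10, 3362 CPM in Zn15 and 6663 CPM in Ctrl. In cluster 15 it gave 5431 CPM in Zn10, 2743 CPM in Zn15 and 9939 CPM in Ctrl, and in cluster 9 it gave 3165, 1479 and 5312 CPM in the same order of libraries. In cluster 7 the values were 5872, 3971 and 5634 CPM. In other clusters hsp70l and summed AP-1 did not move together. Cluster 14 had 5020, 3722 and 6896 CPM of hsp70l beside 8574, 8251 and 7717 CPM of summed AP-1, in the same order. Cluster 4 had 6776, 6882 and 12810 CPM of hsp70l beside 3173, 2997 and 3033 CPM of summed AP-1. Across clusters hsp70l did not follow AP-1 closely: it was highest in cluster 11 with 20970 CPM, next in cluster 4 with 9817 CPM, and at 5255 CPM in cluster 14 and 4965 CPM in cluster 15. Its part in the AP-1 values was not tested.

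Per barcode, 50.1% of the Zn10 barcodes, 46.7% of the Zn15 barcodes and 48.6% of the Ctrl barcodes had a UMI of any of the 8 genes. Depth differs between libraries, so each barcode was thinned to 200 UMIs, which left out 824, 1690 and 2059 shallower barcodes of Zn10, Zn15 and Ctrl. Then the shares were 43.6% in Zn10 (884 of 2026, 41.5 to 45.8), 39.0% in Zn15 (1352 of 3464, 37.4 to 40.7) and 43.0% in Ctrl (1557 of 3620, 41.4 to 44.6). Zn15 was lower and Zn10 was not distinguishable from Ctrl at this depth. Thinned to 300 UMIs, the share in Zn15 was 0.976 of that in Ctrl, beside 0.907 here. For fosab the shares were 15.1% in Zn10, 10.6% in Zn15 and 12.1% in Ctrl.

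By cluster at that depth, 76.9% of the barcodes of cluster 15 (69.2 to 83.4) had a UMI of any member, 66.7% of cluster 11, 65.3% of cluster 14 and 23.0% of cluster 17. A UMI of fosl1a was found in 49.8% (44.0 to 55.7) of the barcodes of cluster 11 and 44.2% (40.0 to 48.6) of those of cluster 7. In cluster 2 the share was 0.702% (0.321 to 1.33), and the part of free RNA in it was not measured. Before thinning, the medians were 239 UMIs per barcode in cluster 2 and 448 in cluster 11. fosab was found in 47.3% of the barcodes of cluster 14 and 3.90% of those of cluster 2. jun was the member found most widely, with 29.3% in cluster 4 and 6.77% in cluster 8.

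Members were also found together in single barcodes. Among barcodes with a UMI of jun at 200 UMIs, 18.5% had a UMI of fosab, and among those without it 10.8%. Within clusters and libraries, fosab and jun occurred together in 288 barcodes where 201 would be expected from their separate shares, a ratio of 1.43 (1.27 to 1.61). fosab with fosb had a ratio of 1.57 (1.26 to 1.93) and fosab with junba 1.72 (1.42 to 2.08). fosl1a with jun had 1.07 (0.871 to 1.30), no excess detectable at this depth, while fosl1a with fosl2 had 1.42 (1.09 to 1.82) and fosl1a with fosab 1.33 (1.08 to 1.62). Thinned to 300 UMIs, fosl1a with fosl2 had 1.26 (0.995 to 1.57), where no excess was detectable, and fosl1a with fosab kept 1.33 (1.103 to 1.595). Free RNA and differences between cells within a cluster are shared by the members, and their part in the ratios was not tested.

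The genes whose levels over the 18 clusters were most like the summed Fos genes, among 1976 genes with at least 300 UMIs, were nocta (r = 0.80), ier2a (0.78), slc25a25a (0.76), pim1 (0.74) and crema (0.73). Of these ier2a is itself an immediate early gene, and crema encodes a cyclic AMP-responsive bZIP factor. For the summed Jun genes they were eif4a1b (0.71), slc38a2 (0.71), eif1 (0.67), ip6k2b (0.64) and elmsan1b (0.62), with eif4a1b and eif1 encoding translation initiation factors and slc38a2 an amino acid transporter. The clusters share libraries, depth and free RNA, and these values only describe likeness.

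Counts of related genes past 1.5-fold are to be read beside the 23.5% of all genes past it in each zinc comparison, and were near that share or rested on few genes. Of 14 other bZIP factors measured, 1 was at least 1.5-fold higher and 2 lower in Zn10 than in Ctrl, with a median log2 ratio of −0.09 beside 0.06 over all genes. In Zn15 0 were higher and 1 lower, with a median of −0.03 beside −0.07. atf3, a stress-induced partner of Jun proteins, was at 537 CPM in Zn10, 667 CPM in Zn15 and 667 CPM in Ctrl. jdp2b, a Jun-dimerising repressor, was at 52.3 CPM in Zn10 and 28.3 CPM in Ctrl. The 2 that were lower in Zn10 were creb1b, with 3 UMIs in Zn10 and 31 in Ctrl, and mafbb, with 7 and 31 UMIs. In Zn15 the one past the fold was mafk, a small Maf factor, at 16.5 CPM in Zn15 and 27.1 CPM in Ctrl.

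Of 34 other immediate early genes measured, 6 were at least 1.5-fold higher and 3 lower in Zn10 than in Ctrl (median log2 0.15 beside 0.06 over all genes), and 1 was higher and 5 lower in Zn15 (median −0.25 beside −0.07). The activity-regulated factor egr1 was at 583 CPM in Zn10, 471 CPM in Zn15 and 400.3 CPM in Ctrl, and egr4 at 631, 462 and 420.3 CPM in the same order. btg1, an antiproliferative gene, was at 1179 CPM in Zn10, 1151 CPM in Zn15 and 1512 CPM in Ctrl. The kinase gene sik1 was at 198 CPM in Zn10 and 107 CPM in Ctrl, and the cytokine-signalling inhibitor socs3a at 108 CPM in Zn15 and 60.6 CPM in Ctrl. Lower were egr2a, at 20.5 CPM in Zn10 and 35.9 CPM in Ctrl, and the clock genes per1a, at 11.3 CPM in Zn10, 8.56 CPM in Zn15 and 18.8 CPM in Ctrl, and per1b, at 19.6 CPM in Zn15 and 37.7 CPM in Ctrl.

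Among kinases, phosphatases and serum response factors upstream of AP-1, 2 of 10 measured were at least 1.5-fold higher and 0 lower in Zn10 than in Ctrl (median log2 0.15 beside 0.06 over all genes), and 2 of 13 higher and 2 lower in Zn15 (median −0.10 beside −0.07). dusp1, a phosphatase of the kinases that act on Jun, was at 80.0 CPM in Zn10, 83.2 CPM in Zn15 and 80.7 CPM in Ctrl. The serum response cofactor gene mrtfab was at 17.1 CPM in Zn15 (28 UMIs) and 5.30 CPM in Ctrl (9 UMIs). Of 13 genes known in mammals as AP-1 targets, 2 were higher and 3 lower in Zn10 (median −0.23 beside 0.06 over all genes), and 2 higher and 1 lower in Zn15 (median −0.04 beside −0.07). The chemokine gene cxcl8a was lower in both, with 73.9 CPM in Zn10, 86.3 CPM in Zn15 and 148 CPM in Ctrl, whereas il1b was at 294 CPM in Zn10, 232 CPM in Zn15 and 213 CPM in Ctrl. A collagenase gene, mmp13a ENSDARG00000114451, gave 37 UMIs in Zn10, 22 in Zn15 and 4 in Ctrl, and so met the minimum only through the zinc libraries.

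Genes of tissue dissociation and heat stress were lower in both zinc libraries by their medians, −0.31 in Zn10 and −0.27 in Zn15, beside 0.06 and −0.07 over all genes. Of 18 measured, 2 were at least 1.5-fold higher and 3 lower in Zn10 than in Ctrl, and 1 higher and 3 lower in Zn15, near the share of all genes. Besides hsp70l, the chaperone genes hsp90aa1.2 (3589 CPM in Zn10, 4041 CPM in Zn15 and 4820 CPM in Ctrl) and hsp70.3 (3549, 3348 and 4393 CPM in the same order) gave the most UMIs. Since hsp70.3 has near-identical copies, its counts may include theirs. socs3a and atf3 are each in 2 of the lists.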

How the data were processed

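The deposited values are whole-number UMI counts of each gene in each barcode, not normalised, for 3 zebrafish brain libraries. Cell Ranger 4.0.0 wrote them, per the file headers. Per the submitters' processing notes, fastp and Seurat were also used, with GRCz11 as genome build. Annotation release, cell calling and counting of intronic reads were not given in the sources used here. Per the labels' protocols single cells were prepared. In the files malat1 made up 27.0% to 32.3% and mitochondrial genes 0.0913% to 0.211% of UMIs. No genome of that build was used, so no coordinates or sequences are printed. All 8 member identifiers were in the gene name table used here, which also pairs CR383676.2 with malat1.

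Counts were summed per library or cluster and divided by the total (CPM). Intervals are exact at 95% (Poisson for CPM, conditional binomial for ratios, Clopper-Pearson for shares). A count of 0 was given a floor of 3 counts. Median-of-ratios shifts used genes with at least 20 UMIs in every library. Barcodes passing filters of 100 genes (minimum) and 30% mitochondrial UMIs (maximum) were scaled to 300 UMIs and log-transformed. From 2000 variable genes and 30 principal components, a shared-neighbour graph over 15 neighbours was partitioned with Leiden (leidenalg 0.10.2, igraph 0.11.9) at resolution 1.0, without integration. The members, malat1 and mitochondrial, ribosomal and haemoglobin genes were left out. So were the gene lists of the report, except the upstream kinases, phosphatases and serum response factors (230 genes left out in all). A cluster was named for a marker list with at least 3 markers 2-fold or more higher there, with at least 15 UMIs each, and more than any other list. Ties were settled by the 10 leading genes. This rule was set after the clusters were seen. Clusters 1 and 13 were named by hand from the general neuron list, and clusters 2, 10 and 15 left unnamed by hand, since their leading genes went against the list. Differences from the study's own cell types may come from these names. Doublets were not called and free RNA was not corrected. The script was tested on simulated data.

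The members and lists were chosen with earlier results of these data known. Named besides the 8 members are genes with most UMIs or the largest ratios of each list, and the 5 genes most like the summed Fos and Jun genes. Alternatives were other scalings, filters, clusterings, depths and folds.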

Additional observations from a re-analysis of the deposited data

Results flagged for a closer look

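Some members differed from Ctrl in opposite directions in different clusters, with counting intervals that did not include 0 on either side. These were picked from all pairs of member and cluster compared. Of 64 pairs in Zn10, 4 higher and 5 lower had such intervals, and of 76 in Zn15, 4 higher and 15 lower. The same share over all genes is not given here, and several of the pairs below rest on few UMIs. The differences between clusters were not tested, with 1 library per treatment.

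For fosl2 in Zn15 over Ctrl, the log2 ratio was 1.004 in the radial glia-like cluster 9 (35 and 16 UMIs) and −1.69 in the microglia or macrophage-like cluster 11 (9 and 39 UMIs). For jun in Zn15 over Ctrl, it was 1.02 in the habenula neuron-like cluster 14 (34 and 19 UMIs) and 0.60 in the oligodendrocyte-like cluster 12 (109 and 33 UMIs), against −0.87 in the unnamed cluster 15 (54 and 38 UMIs). For junba in Zn10 over Ctrl, it was 1.12 in cluster 11 (14 and 20 UMIs), against −2.08 in the oligodendrocyte-like cluster 4 (2 and 25 UMIs) and −1.02 in cluster 15 (19 and 23 UMIs). UMI numbers are given for the zinc library first. For fosl2 in both clusters, jun in cluster 14 and junba in clusters 4 and 15, only the higher library reached the minimum of 20 UMIs. That filter favours the direction seen in these pairs, so they are no support for a difference.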

How the results depend on the processing

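With median-of-ratios size factors the summed log2 ratios in Zn10 over Ctrl were −0.058 (Fos genes), −0.080 (Jun genes) and −0.069 (all 8). In Zn15 over Ctrl the ratio of all 8 was −0.090, and in Zn15 over Zn10 the 3 ratios were −0.038, −0.0030 and −0.020. Without malat1 in the total the ratio of all 8 was −0.091 in Zn15 over Ctrl, and in Zn15 over Zn10 they were −0.12 (Fos genes), −0.080 (Jun genes) and −0.10 (all 8). Without the microglia or macrophage-like barcodes they were 0.26 (Fos genes) and 0.11 (all 8) in Zn10 over Ctrl and −0.34 (Fos genes) in Zn15 over Zn10. With at least 100 UMIs required, 0 members passed 1.5-fold in Zn10 or in Zn15 over Ctrl. The share of all genes at that minimum is not given here.

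The log2 ratio of the highest cluster to all kept barcodes changed with the classes. With 1000 variable genes it was 3.16 (fosab), 3.12 (fosb), 2.76 (fosl2), 1.59 (jun), 3.31 (junba) and 1.86 (jund), all in the cluster of 53 barcodes. At resolution 0.5 it was 2.74 for fosl1a. With marker-positive barcodes of at least 2 and at least 3 UMIs it was 1.53 and 1.62 (fosab, habenula neuron), 1.80 and 1.86 (fosb, habenula neuron), 2.62 and 2.67 (fosl1a, microglia or macrophage), 0.81 and 0.99 (fosl2, microglia or macrophage), 0.68 and 0.61 (junba, dividing cell and radial glia), and 0.41 and 0.41 (jund, GABAergic neuron). These classes hold no counterpart of cluster 15.

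Thinned to 300 UMIs, the share of barcodes with any member in Zn15 was 0.976 of that in Ctrl, beside 0.907 at 200 UMIs, and fosab with jun had a co-detection ratio of 1.25 instead of 1.43. At a fold of 2, related bZIP factors had 0 higher and 2 lower genes in Zn10 over Ctrl, and 0 and 0 in Zn15. Immediate early genes had 0 higher and 0 lower in Zn10, and 0 and 1 in Zn15. Upstream kinases and factors had 0 higher and 0 lower in Zn10, and 1 and 2 in Zn15. AP-1 targets had 1 higher and 1 lower in Zn10, and 1 and 0 in Zn15. Stress genes had 0 higher and 0 lower in Zn10, and 0 and 2 in Zn15. The share of all genes past a fold of 2 is not given here. The cause of these changes with the settings was not tested.

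Values under an alternative were set against the counting error or 1.5 times. Of the summed levels, counts and classes above, 45 moved by more than that and 92 by less. Of the library ratios of single members, 18 moved by more and 147 by less. No paired analysis was possible because each treatment had 1 library. Leaving out a replicate was likewise not possible. The counts of clusters with a lower summed level under other scalings were chosen after seeing the data. Depth limits junbb and most values of single clusters.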
